A study of Mus musculus with 14 samples.

Results

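The core genes of the circadian clock were followed in senescent cells and livers that had lost TRF2, a protein that caps telomeres and is encoded by *Terf2*. They were 10 of the 54532 genes in the deposited tables, taken by gene name: *Arntl*, *Clock*, *Npas2*, *Per1*, *Per2*, *Per3*, *Cry1*, *Cry2*, *Nr1d1* and *Dbp*. Senescent iMEFs were Trf2F/F;Rosa-CreER fibroblasts of mouse embryos, immortalized with the SV40 large T antigen, given 4-hydroxytamoxifen (4HT) to activate Cre and collected at day 7 (n = 3). Control iMEFs had the same genotype and received vehicle (n = 3). Senescent livers came from Trf2F/F;Rosa-mTmG mice and control livers from Rosa-mTmG mice (n = 4 each). All 8 mice had received AAV8-Tbg-Cre, a virus whose Cre is driven by the hepatocyte promoter of thyroxine-binding globulin, and livers were taken 6 to 7 weeks later. Whole liver was sequenced, so cells other than hepatocytes kept *Terf2*. No culture without floxed alleles was sequenced after 4HT, so the deletion and the effects of 4HT or active Cre in iMEFs cannot be told apart. The sources used here do not give the age or sex of the mice or the hour of collection of their livers. They also do not give the time since the last passage or change of medium for the iMEFs. The study calls its replicates biological.

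The clock of mammalian cells is a feedback loop of transcription. CLOCK, or its close relative NPAS2, pairs with BMAL1 (the product of *Arntl*) and switches on genes through E-boxes, among them the *Per* and *Cry* genes, *Nr1d1* and *Dbp*. PER and CRY proteins return to the nucleus and repress their own activator, while REV-ERBα (*Nr1d1*) represses *Arntl*, *Clock* and *Npas2* through ROR response elements (RREs). DBP is a transcription factor that binds D-boxes and carries the rhythm to output genes. In mouse liver these transcripts rise and fall over the day, with *Arntl* and *Npas2* high when *Dbp* and *Nr1d1* are low, and food intake and body temperature shift them.

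The control regions of this loop can be read in the promoters of the members. RefSeq promoters on GRCm38.p6, running from 250 bases before to 50 bases after a start site, were found for 9 of the 10 members, with 13 start sites. Both strands were searched for the E-box CACGTG, its variant the E-prime box CACGTT, the D-box (TTATGTAA or TTATGCAA) and the RRE. These letters are in 7.15%, 4.68%, 1.66% and 0.384% of all 32851 RefSeq promoters, in that order. A match is a description and not a binding site. The stretches below are shown because they hold matches to the motifs through which the arms of the loop are known to act, with the matched letters in capitals.
Arntl, chr7:113207528-113207557, plus strand, positions 18 to 47 of the second start site and inside an exon, with the RRE in capitals: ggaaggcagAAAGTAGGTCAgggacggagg
Per1, chr11:69098699-69098948, plus strand, positions -250 to -1 and inside the gene's span, with an E-box and then a D-box in capitals: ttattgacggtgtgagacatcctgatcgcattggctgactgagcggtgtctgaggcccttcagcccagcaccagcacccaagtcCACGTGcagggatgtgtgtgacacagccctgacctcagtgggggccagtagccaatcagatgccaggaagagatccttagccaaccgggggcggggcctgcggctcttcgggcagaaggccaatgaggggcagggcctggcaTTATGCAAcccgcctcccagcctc
Per3, chr4:151044666-151044915, minus strand, positions -250 to -1 and outside the gene's span, with 2 D-boxes in capitals: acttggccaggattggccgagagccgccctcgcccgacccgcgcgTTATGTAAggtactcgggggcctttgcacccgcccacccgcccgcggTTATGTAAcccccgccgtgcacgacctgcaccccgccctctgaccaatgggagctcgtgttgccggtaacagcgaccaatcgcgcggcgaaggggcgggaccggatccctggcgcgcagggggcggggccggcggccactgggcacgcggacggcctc
Cry1, chr10:85185055-85185304, minus strand, positions -250 to -1 at the edge of the gene, with an E-prime box and then an E-box in capitals: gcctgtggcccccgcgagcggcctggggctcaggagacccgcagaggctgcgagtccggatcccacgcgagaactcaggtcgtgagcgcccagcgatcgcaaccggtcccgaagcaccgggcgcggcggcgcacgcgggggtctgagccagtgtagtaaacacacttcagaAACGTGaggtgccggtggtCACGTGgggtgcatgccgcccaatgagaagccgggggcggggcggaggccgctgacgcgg
Nr1d1, chr11:98775378-98775627, minus strand, positions -250 to -1 and outside the gene's span, with an E-prime box read on the other strand in capitals: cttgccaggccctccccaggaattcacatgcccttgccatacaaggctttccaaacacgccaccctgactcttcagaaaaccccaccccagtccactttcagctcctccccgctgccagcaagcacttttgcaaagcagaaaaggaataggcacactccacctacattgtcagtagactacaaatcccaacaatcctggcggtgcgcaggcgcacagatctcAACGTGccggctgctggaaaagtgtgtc

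*Arntl* was thus the member whose window held an RRE, and *Per1* and *Per3* were those with D-boxes. *Cry2* held an E-prime box at positions -166 to -161. No match lay in the windows of *Clock*, *Npas2* and *Dbp*, nor in those of the other *Arntl* and *Per1* start sites, which says only that these letters are absent from those windows.

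Libraries held 15364450 to 20177401 reads in genes. Levels below are counts scaled to library size (CPM) with TMM factors set within each tissue, and p-values were adjusted over all tested genes of the tissue. *Terf2* averaged 0.250 ± 0.048 CPM in senescent iMEFs and 38.3 ± 0.775 CPM in control iMEFs (SD, n = 3 each). It averaged 3.82 ± 1.12 CPM in senescent livers and 12.6 ± 1.35 CPM in control livers (SD, n = 4 each), and the edgeR adjusted p was 0.00216. The labelled cell types were checked against their markers. Of 8 hepatocyte markers 6 were at 0 in every iMEF library, and all 8 were present in every liver, with a summed level of 87949 to 108670 CPM in senescent livers and 80096 to 93047 CPM in control livers.

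In senescent iMEFs the clock genes moved in both directions. *Clock* and *Nr1d1* rose by about 1.5-fold, *Dbp* fell to about 0.540 of its control level and *Per3* to 0.739. These were 4 of the 9 members that could be tested, 2 higher and 2 lower, where 39.8% of all 13561 tested genes were called, 18.6% higher and 21.2% lower. The members were therefore called about as often as genes in general. The groups did not overlap for 6 of the 9, against 50.6% of all tested genes, and 6 had an unadjusted p under 0.05, against 48.1%. The median log2 fold change of the members was -0.11, and that of all tested genes was 0.00.

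Among the activators, *Clock* had 131, 118 and 120.0 CPM in the 3 senescent cultures, against 75.6, 83.3 and 86.4 CPM in the control cultures. Every senescent culture lay above every control culture. The log2 fold change was 0.59 ± 0.083 (SE), with an edgeR adjusted p of 1.38e-04. *Arntl*, the partner of CLOCK, had 23.5, 22.3 and 21.0 CPM in senescent iMEFs, against 21.0, 24.8 and 26.2 CPM in control iMEFs. These groups overlapped, and the log2 fold change of -0.11 had a 95% interval of -0.35 to 0.13. *Npas2* was close to absent from the fibroblasts, with 15 reads over the senescent libraries and 30 over the control libraries, and was too low to be tested.

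*Nr1d1*, the repressor of *Arntl*, had 34.2, 34.7 and 36.0 CPM in senescent iMEFs, against 24.6, 22.1 and 20.3 CPM in control iMEFs. The groups did not touch, and the log2 fold change was 0.64 ± 0.099 (SE, edgeR adjusted p = 2.68e-04). *Nr1d1* shares 263 bases, 8.55% of its exon length, with *Thra*, the thyroid hormone receptor α gene on the opposite strand. The sources used here do not say whether reads were counted by strand, so reads from the shared bases may belong to either gene. *Thra* changed the other way in iMEFs, with 36.9 ± 3.75 CPM in senescent cultures and 72.9 ± 6.94 CPM in control cultures (SD, n = 3 each; log2 fold change -0.98, edgeR adjusted p = 1.37e-05).

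Of the *Per* genes, which encode repressors of CLOCK and BMAL1, *Per3* had 10.3, 10.4 and 14.4 CPM in senescent iMEFs, against 16.2, 15.5 and 15.9 CPM in control iMEFs. It was lower in each senescent culture, by a log2 fold change of -0.44 ± 0.14 (SE, edgeR adjusted p = 0.0257). The call held without senescent culture 3 but was lost without any one of the other 5 libraries, with adjusted p-values of 0.0588 to 0.103. *Per1* had 31.1, 28.7 and 34.7 CPM in senescent iMEFs, against 38.1, 38.2 and 36.3 CPM in control iMEFs. The groups did not overlap, but the log2 fold change of -0.25 narrowly missed the threshold (edgeR adjusted p = 0.0514), and it passed at 0.0110 without senescent culture 3. *Per2* had 9.93, 7.55 and 9.87 CPM in senescent iMEFs, against 8.34, 10.3 and 8.34 CPM in control iMEFs. These values overlapped, and the 95% interval of the log2 fold change ran from -0.31 to 0.35.

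*Cry1* and *Cry2* encode the other repressors. *Cry1* was the steadiest member in iMEFs, with 33.0, 32.0 and 31.0 CPM in senescent cultures, against 32.1, 33.9 and 33.7 CPM in control cultures. Its log2 fold change was -0.05, with a 95% interval of -0.24 to 0.13. *Cry2* had 9.77, 9.87 and 9.58 CPM in senescent iMEFs, against 12.8, 13.3 and 10.6 CPM in control iMEFs. The senescent cultures were lower throughout, and the log2 fold change of -0.33 missed the threshold (edgeR adjusted p = 0.060). Without control culture 3, the lowest of its group, the adjusted p was 0.0262. *Cry2* shares 295 bases, 4.67% of its exon length, with the opposite-strand transcript D930015M05Rik.

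*Dbp*, the output factor of the loop, had 4.83, 6.76 and 5.39 CPM in senescent iMEFs, against 10.4, 12.2 and 9.08 CPM in control iMEFs. The groups did not overlap. Its log2 fold change of -0.89 ± 0.17 was the largest of the members in iMEFs (SE, edgeR adjusted p = 0.00116). *Dbp* shares 539 bases, 18.0% of its exon length, with *Sphk2*, a sphingosine kinase gene on the opposite strand. *Sphk2* averaged 23.0 ± 0.972 CPM in senescent iMEFs and 26.6 ± 3.58 CPM in control iMEFs (SD, n = 3 each), and did not pass the test (log2 fold change -0.21, edgeR adjusted p = 0.170).

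**Figure D1:**
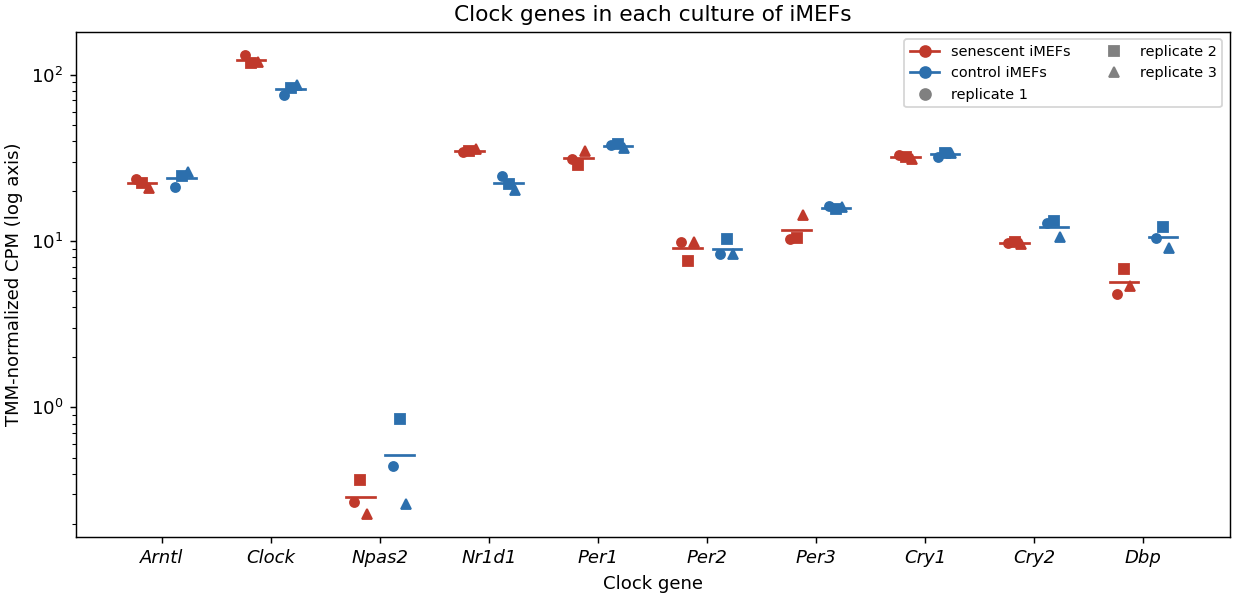
TMM-normalized CPM of the 10 clock genes in each iMEF library, on a log axis, with senescent cultures (n = 3) left of control cultures (n = 3) for each gene; marker shapes are replicates and bars are group means. *Clock* and *Nr1d1* sit higher in every senescent culture, *Dbp* and *Per3* sit lower, and *Npas2* lies below 1 CPM throughout.

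Fibroblast identity genes changed in the same libraries. Of 8 fibroblast markers 6 were lower in senescent iMEFs, against 21.2% of all tested genes, and their summed level was 7408 to 8999 CPM in senescent cultures and 16224 to 17192 CPM in control cultures. The part of this in the changes of the clock genes was not tested.

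Further regulators of the loop were also examined in iMEFs, with 16 of 18 listed genes tested. In senescent cultures 2 were higher and 6 were lower, with a median log2 fold change of -0.13. Over all tested genes 39.8% were called, 18.6% higher and 21.2% lower. *Arntl2*, a close relative of *Arntl*, averaged 8.04 ± 0.231 CPM in senescent iMEFs and 4.74 ± 1.51 CPM in control iMEFs (SD, n = 3 each), which passed with a log2 fold change of 0.74 (edgeR adjusted p = 0.0104). *Nr1d2* encodes REV-ERBβ, a relative of the *Nr1d1* product, and just passed, with a log2 fold change of 0.24 and an edgeR adjusted p of 0.0498. Of the 6 lower genes, *Tef*, a PAR bZIP relative of *Dbp*, averaged 94.5 ± 2.14 CPM in senescent iMEFs and 113 ± 6.70 CPM in control iMEFs (log2 fold change -0.26, edgeR adjusted p = 0.0176). *Hlf*, of the same family, averaged 20.5 ± 0.587 CPM in senescent iMEFs and 27.6 ± 3.59 CPM in control iMEFs (log2 fold change -0.43, edgeR adjusted p = 0.00913). *Nfil3*, which encodes a repressor acting on the same D-boxes, had a log2 fold change of -0.32 (edgeR adjusted p = 0.0167). The rest of the 6 were *Rora*, an activator at RREs (-0.53), *Bhlhe40*, a repressor at E-boxes (-0.37), and *Timeless*, a gene of DNA replication and the clock (-0.29). The count fell to 5 without control culture 1, control culture 2 or senescent culture 1.

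Genes known as clock outputs in liver were called in iMEFs in 10 of 14 tested cases, 7 higher and 3 lower, with a median log2 fold change of 0.19. All tested genes were called in 39.8% of cases, 18.6% higher and 21.2% lower. The largest rises were in *Slc45a3* (log2 fold change 1.63), *Tfrc*, the transferrin receptor gene (1.45), and *Rgs16*, a regulator of G-protein signaling (1.24). *Slc45a3* was low throughout, at 2.99 ± 1.07 CPM in senescent iMEFs and 0.886 ± 0.338 CPM in control iMEFs (SD, n = 3 each). *Rgs16* averaged 7.22 CPM in senescent and 2.98 CPM in control iMEFs, and *Tfrc* 556 and 203 CPM in the same order. *Noct*, which encodes nocturnin, averaged 103 ± 3.99 CPM in senescent iMEFs and 64.6 ± 2.77 CPM in control iMEFs (SD, n = 3 each; log2 fold change 0.67, edgeR adjusted p = 3.72e-05). *Por* (0.42), *Coq10b* (0.31) and *Alas1* (0.25), the first enzyme of heme synthesis, also rose. *St3gal5* (-0.68), *Lpin1* (-0.44) and the cell cycle kinase gene *Wee1* (-0.39) fell.

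None of the 10 members was called in senescent livers by edgeR, and 0 had an unadjusted p under 0.05. DESeq2 and limma-voom called 0 as well. Of all 14270 tested genes 0.343% were called (0.308% higher, 0.035% lower) and 7.54% had an unadjusted p under 0.05. The 2 groups of livers overlapped for all 10 members, while 4.51% of all tested genes had groups apart. The median of the members' log2 fold changes was 0.01. The spread between livers of 1 group was wide for several members. The within-group SD of log2 CPM was 1.89 for *Dbp*, 1.17 for *Nr1d1* and 1.04 for *Per3*, while the median over all tested genes was 0.23. A smaller SD was found in 99.9%, 99.3% and 98.8% of tested genes for these 3 genes, in that order. *Per1*, *Npas2*, *Per2* and *Cry1* followed with SDs of 0.83, 0.77, 0.73 and 0.54, and *Cry2* (0.40), *Arntl* (0.31) and *Clock* (0.29) were nearer the median. In iMEFs the SDs of the 9 members ran from 0.04 to 0.23 around a median of 0.14 over all tested genes.

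*Dbp* had 0.752, 1.92, 1.78 and 25.9 CPM in senescent livers 1 to 4, against 1.78, 1.52, 7.06 and 17.2 CPM in control livers 1 to 4. Each group held livers near 2 CPM and a liver 4 that was far higher. The highest value was 34.4 times the lowest among senescent livers and 11.3 times among control livers. The log2 fold change of 0.13 had a 95% interval of -1.98 to 2.24, which spans large changes in both directions, and the value was -2.14 without senescent liver 4. The lowest *Dbp* value rests on 13 reads, and 18.0% of the exon length is shared with *Sphk2*, which averaged 67.8 ± 15.4 CPM in senescent livers and 67.8 ± 20.4 CPM in control livers (SD, n = 4 each).

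*Nr1d1* had 26.9, 13.8, 50.1 and 84.4 CPM in senescent livers 1 to 4, against 34.2, 22.8, 109 and 125 CPM in control livers 1 to 4. In both groups livers 3 and 4 were above livers 1 and 2. Its log2 fold change of -0.73 had a 95% interval of -1.97 to 0.51 and did not pass (edgeR adjusted p = 0.812). It was -1.26 without senescent liver 4 and -0.34 without control liver 4. *Thra*, its neighbour, varied far less, with 18.7 to 27.3 CPM in senescent livers and 23.1 to 26.2 CPM in control livers.

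*Per3* had 2.66, 4.03, 6.37 and 19.95 CPM in senescent livers 1 to 4, against 4.68, 4.22, 6.33 and 14.9 CPM in control livers 1 to 4. As for *Dbp*, liver 4 was the highest of each group, and the 95% interval of the log2 fold change ran from -1.11 to 1.35. *Per2* had 6.42, 4.96, 4.52 and 15.4 CPM in senescent livers 1 to 4, against 4.68, 7.45, 5.47 and 13.5 CPM in control livers 1 to 4. Here too liver 4 of each group stood above its other 3 livers, and the group means were nearly equal, at 7.83 CPM in senescent livers and 7.79 CPM in control livers. *Per1* had 20.4, 13.7, 7.07 and 11.0 CPM in senescent livers 1 to 4, against 20.3, 14.5, 5.90 and 4.72 CPM in control livers 1 to 4. *Per1* thus took another order of livers than *Per2* and *Per3*, with liver 1 highest in both groups.

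Among the activators liver 4 was at the low end of each group, and not at the high end as for *Dbp*, *Per2* and *Per3*. *Arntl* had 34.4, 33.5, 43.4 and 22.0 CPM in senescent livers 1 to 4, against 38.2, 34.0, 30.8 and 28.97 CPM in control livers 1 to 4. *Npas2* had 12.9, 16.9, 18.5 and 4.99 CPM in senescent livers 1 to 4, against 17.7, 16.0, 9.55 and 6.44 CPM in control livers 1 to 4. *Clock* had 69.7, 55.4, 61.0 and 41.6 CPM in senescent livers 1 to 4, against 72.9, 65.4, 69.5 and 47.9 CPM in control livers 1 to 4. Liver 4 was the lowest of its group for all 3 genes, in senescent and in control livers. The 95% intervals of the log2 fold changes ran from -0.36 to 0.39 for *Arntl*, -0.71 to 0.91 for *Npas2* and -0.52 to 0.19 for *Clock*.

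*Cry1* had 20.2, 20.2, 12.5 and 7.96 CPM in senescent livers 1 to 4, against 28.2, 21.5, 17.4 and 13.9 CPM in control livers 1 to 4. It was lowest in liver 4 of each group, as the activators were, with a log2 fold change of -0.41 and a 95% interval of -1.02 to 0.20. *Cry2* had 20.5, 30.7, 37.1 and 41.8 CPM in senescent livers 1 to 4, against 29.7, 24.2, 38.2 and 41.4 CPM in control livers 1 to 4. It was highest in liver 4 of each group, and the 95% interval of its log2 fold change ran from -0.50 to 0.43.

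**Figure D2:**
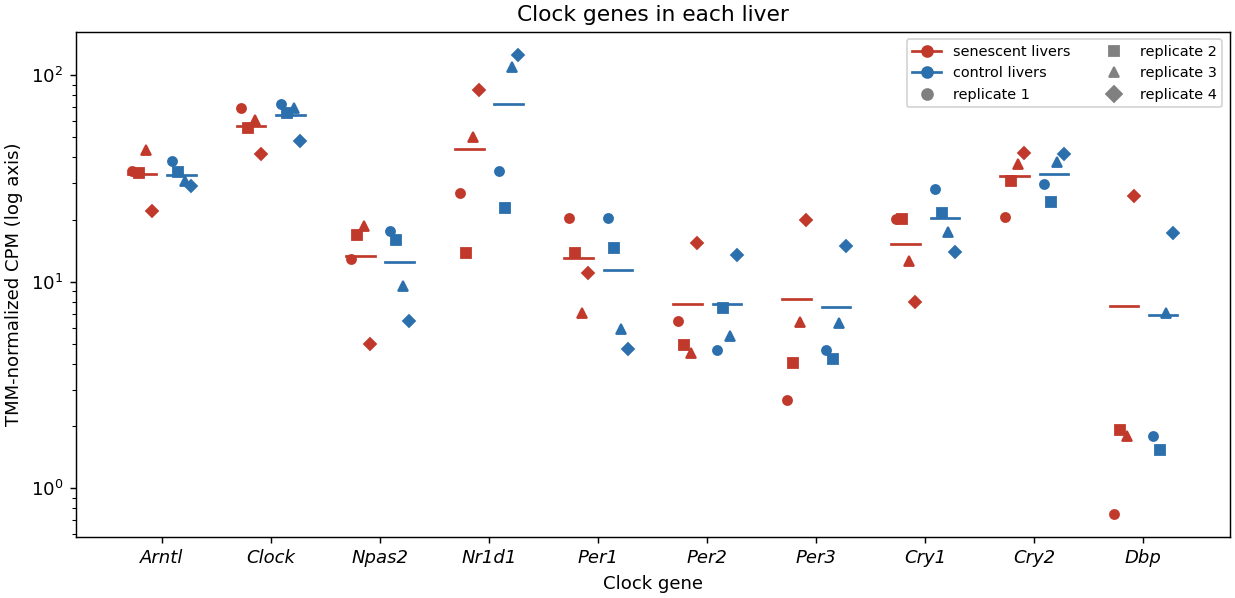
TMM-normalized CPM of the 10 clock genes in each liver, on a log axis, with senescent livers (n = 4) left of control livers (n = 4) for each gene; marker shapes are replicates and bars are group means. Groups overlap for all 10 genes, and the spread is widest for *Dbp*, at 0.752 to 25.9 CPM in senescent livers and 1.52 to 17.2 CPM in control livers.

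Whether the livers differed from each other as livers taken at different hours might was checked by following *Arntl* against the other 9 members over the 8 livers, which are the independent samples. Pearson's r of log2 CPM passed the exact two-sided permutation test for 3 of the 9 relations after adjustment over the 9. *Npas2* rose with *Arntl* (r = 0.91, p = 0.000248, adjusted p = 0.00223; Spearman's rho = 0.90, permutation p = 0.00456, adjusted p = 0.0411). *Per2* ran against it (r = -0.85, permutation p = 0.00226, adjusted p = 0.0102; rho = -0.81, p = 0.0218, adjusted p = 0.0653). *Dbp* ran against it as well (r = -0.81, permutation p = 0.00871, adjusted p = 0.0261; rho = -0.81, p = 0.0218, adjusted p = 0.0653). By rank only *Npas2* passed. Of 13170 other genes ranked in these livers, 0.395% had a larger absolute r with *Arntl* than *Npas2*, 1.66% a larger one than *Per2* and 3.03% a larger one than *Dbp*. These 3 are the members with the largest absolute r. For *Clock*, *Per3*, *Cry1*, *Nr1d1*, *Cry2* and *Per1* the shares were 6.93%, 9.02%, 16.5%, 32.9%, 39.2% and 69.3%, in that order.

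Relations of *Arntl* with the other 6 members did not pass the exact permutation test. Pearson's r was 0.74 for *Clock* (adjusted p = 0.0786, permutation), -0.70 for *Per3* (0.0900), 0.61 for *Cry1* (0.161), -0.46 for *Nr1d1* (0.327), -0.41 for *Cry2* (0.354) and 0.20 for *Per1* (0.649). Spearman's rho for these genes was 0.67, -0.48, 0.48, -0.45, -0.69 and 0.50 in the same order, with adjusted p-values of 0.15 to 0.268. The livers farthest from the median of *Arntl* were senescent livers 3 and 4. Without both, r was 0.89 for *Npas2*, -0.71 for *Per2* and -0.81 for *Dbp*, and 0.92 for *Per1* and 0.98 for *Cry1*. Without senescent liver 4 alone none of the 9 relations passed, and without senescent liver 3 alone 6 did. Without control liver 4, *Npas2* alone passed. The calls thus rest on single livers, while the sign of r did not turn for any of the 9 relations when any 1 liver was left out.

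The sign of r with *Arntl* was the same within both groups for every member except *Per1*. For *Npas2*, *Per2* and *Dbp*, r was 0.95, -0.95 and -0.84 over the 4 senescent livers. Over the 4 control livers it was 0.94, -0.74 and -0.89 for these genes. These are descriptions of 4 livers each, with no test. *Per1* differed in sign, at -0.22 over the senescent livers and 0.97 over the control livers, and that difference was not tested.

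The log2 level of *Arntl* minus that of *Dbp*, which are known to peak at opposite times of day, gave 1 value per liver. It was 5.31, 4.05, 4.51 and -0.23 in senescent livers 1 to 4, against 4.33, 4.38, 2.11 and 0.75 in control livers 1 to 4. Livers 1 and 2 of both groups and senescent liver 3 lay above 4, control liver 3 was in between and liver 4 of both groups was lowest. The replicate numbers are names of samples and are not known to mark a shared day or hour, and no hour of collection was inferred from these values.

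**Figure D3:**
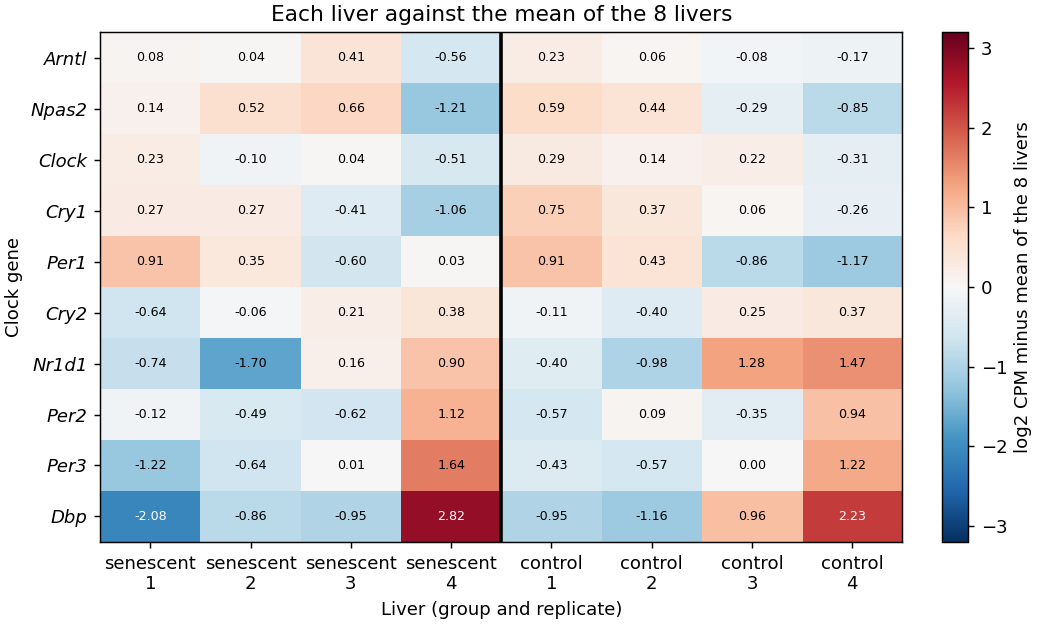
Log2 CPM of each clock gene (rows) in each liver (columns, senescent livers left of control livers) minus the mean of the 8 livers for that gene; red is above and blue below the mean. Liver 4 of both groups shows *Dbp*, *Per3* and *Per2* above the mean (*Dbp* by 2.82 in senescent liver 4 and 2.23 in control liver 4) with *Arntl*, *Npas2*, *Clock* and *Cry1* below it.

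None of 16 tested other regulators of the loop was called in livers, where 0.343% of all tested genes were. An unadjusted p under 0.05 was found for 1 of them, against 7.54% of all tested genes. The median of their log2 fold changes was -0.06. *Tef* had 27.7, 44.5, 72.9 and 112 CPM in senescent livers 1 to 4, against 49.7, 39.2, 81.9 and 81.2 CPM in control livers 1 to 4. In both groups livers 3 and 4 were above livers 1 and 2, as for *Nr1d1*. *Hlf*, the relative with the smallest p, averaged 36.5 ± 2.95 CPM in senescent livers and 44.1 ± 6.16 CPM in control livers (SD, n = 4 each; log2 fold change -0.27, edgeR adjusted p = 0.610). *Nr1d2* had 26.3, 23.5, 55.5 and 69.3 CPM in senescent livers 1 to 4, against 62.9, 43.7, 75.1 and 56.0 CPM in control livers 1 to 4, and these values overlapped.

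None of 17 clock output genes was called in livers, against 0.343% of all tested genes, and 2 had an unadjusted p under 0.05, against 7.54%. *Noct* had 177, 84.2, 35.4 and 93.0 CPM in senescent livers 1 to 4, against 56.8, 71.7, 23.4 and 19.9 CPM in control livers 1 to 4. Of the senescent livers 3 were above every control liver and 1 was not, and the log2 fold change of 1.18 had an edgeR adjusted p of 0.577. *Alas1* had 328, 135, 94.6 and 134 CPM in senescent livers 1 to 4, against 234, 279, 285 and 333 CPM in control livers 1 to 4. Senescent liver 1 was with the controls and the other 3 senescent livers were below them, so that the log2 fold change was -0.71 with an edgeR adjusted p of 0.631. Without senescent liver 1, 1 output gene was called. *Rgs16* averaged 11.8 ± 7.93 CPM in senescent livers and 24.0 ± 14.7 CPM in control livers (SD, n = 4 each; log2 fold change -1.03, edgeR adjusted p = 0.677).

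Because meals and temperature also move these genes, lists for both were read in the same livers. None of 9 temperature-responsive genes, 10 fasting genes and 10 feeding genes was called by edgeR, with 0, 0 and 3 at an unadjusted p under 0.05, against 0.343% and 7.54% of all tested genes. Among those were *Fasn*, the fatty acid synthase gene, and *Me1*, the malic enzyme gene. *Fasn* averaged 781 ± 164 CPM in senescent livers and 1053 ± 143 CPM in control livers (log2 fold change -0.43, edgeR adjusted p = 0.515). *Me1* averaged 135 ± 29.7 CPM in senescent livers and 179 ± 38.1 CPM in control livers (SD, n = 4 each; log2 fold change -0.40, edgeR adjusted p = 0.621).

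Other cell types of the liver were present in both groups. Summed stellate cell markers were 319 to 366 CPM in senescent livers and 261 to 313 CPM in control livers. Endothelial markers summed to 257 to 307 CPM in senescent livers and 221 to 257 CPM in control livers, and erythroid markers to 132 to 276 CPM in senescent livers and 105 to 172 CPM in control livers. No marker of these lists was called by edgeR, where 0.343% of all tested genes were, and none was at 0 in all libraries. An unadjusted p under 0.05 was found for 2 of 5 stellate, 1 of 5 endothelial and 3 of 5 erythroid markers, against 7.54% of all tested genes. Their median log2 fold changes were 0.34, 0.21 and 0.63, and that of all tested genes was -0.004. Medians of the other lists were 0.36 for macrophage, 0.23 for cholangiocyte, 0.40 for neutrophil, -0.08 for lymphocyte and -0.06 for fibroblast markers. Of those lists, 1 macrophage and 1 cholangiocyte marker had an unadjusted p under 0.05, and 0 were called by edgeR. The part of these cell types in the clock values was not tested. In bulk tissue, a change in the number of cells of a type and a change in RNA per cell cannot be told apart.

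The change in livers was then set against that in iMEFs in 1 fit, since a call in a single tissue does not show a difference. *Clock* was the member that differed, with a log2 fold change of -0.17 in livers and 0.59 in iMEFs. The difference, livers minus iMEFs, was -0.76 ± 0.21 (SE), with an edgeR adjusted p of 0.0185. Of all 11693 genes tested in both tissues 17.1% differed, so 1 of 9 members is not more than the share of genes in general. The call was lost without control culture 1 (adjusted p = 0.0594) or senescent culture 1 (adjusted p = 0.0513). For *Nr1d1* the log2 fold change was -0.73 in livers and 0.64 in iMEFs, and the difference of -1.38 did not pass (95% interval -2.90 to 0.14, edgeR adjusted p = 0.204). For *Dbp* the difference was 1.01, with a 95% interval of -1.50 to 3.52. The intervals of the other 6 members also spanned 0.

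**Figure D4:**
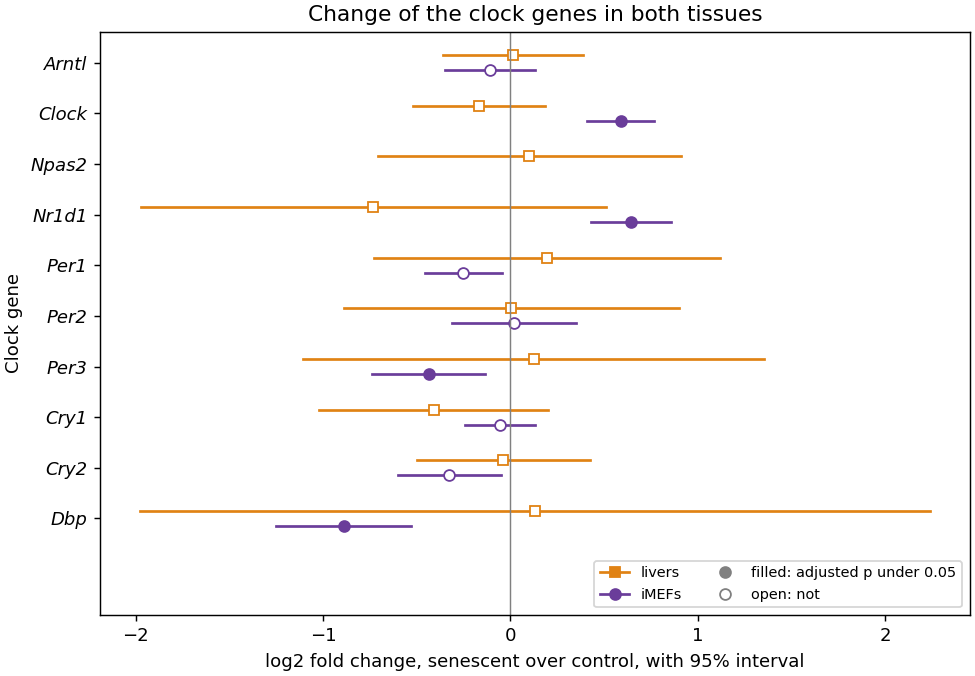
Log2 fold change, senescent over control, with 95% intervals, for each clock gene in livers (squares, 4 against 4) and iMEFs (circles, 3 against 3); filled symbols have an edgeR adjusted p under 0.05, and *Npas2* was not tested in iMEFs. Intervals are narrow in iMEFs, where *Clock*, *Nr1d1*, *Per3* and *Dbp* are filled, and wide in livers, where every interval spans 0.

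Levels were also ordered within each group, as mean CPM per kb of exon. In senescent iMEFs the order was *Nr1d1* (11.4 CPM per kb), *Cry1* (9.58), *Clock* (8.97), *Per1* (5.60), *Arntl* (2.96), *Dbp* (1.89), *Per2* (1.56), *Cry2* (1.54), *Per3* (1.22) and *Npas2* (0.0601). Libraries overlapped between *Cry1* and *Clock*, between *Dbp* and *Per2* and between *Per2* and *Cry2*, so these neighbours were not apart. In control iMEFs the order was *Cry1* (9.95 CPM per kb), *Nr1d1* (7.26), *Per1* (6.67), *Clock* (5.96), *Dbp* (3.52), *Arntl* (3.19), *Cry2* (1.93), *Per3* (1.65), *Per2* (1.54) and *Npas2* (0.109). Here *Nr1d1* overlapped *Per1*, *Dbp* overlapped *Arntl* and *Per3* overlapped *Per2*.

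In livers *Nr1d1* came first and *Per2* and *Per3* last. *Nr1d1* had 14.2 ± 10.1 CPM per kb in senescent livers and 23.7 ± 16.8 CPM per kb in control livers (SD, n = 4 each). *Cry1*, *Cry2*, *Arntl* and *Clock* followed, between 4.15 and 5.15 CPM per kb in senescent livers and between 4.39 and 6.06 CPM per kb in control livers. *Npas2*, *Dbp* and *Per1* were at 2.78, 2.53 and 2.32 CPM per kb in senescent livers and at 2.59, 2.30 and 2.02 CPM per kb in control livers. Neighbours overlapped throughout, except *Arntl* and *Npas2* in control livers. *Npas2* was far higher in livers, at 2.78 CPM per kb in senescent livers and 0.0601 CPM per kb in senescent iMEFs, although the tissues were normalized apart.

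The genes most like *Arntl* over the 8 livers were described by Pearson's r of log2 CPM, among 13170 other genes with a mean of at least 1 CPM. Among the highest r were those of *Vps13c* (0.96), *Cyth3* (0.96), *Ppp2r1b*, a phosphatase subunit gene (0.96), and *Lipa*, the lysosomal acid lipase gene (0.95). The lowest r was found for *Rassf7* (-0.98), *Ptdss2*, a phosphatidylserine synthase gene (-0.97), *Fn3krp* (-0.97), *Gtf3c5* (-0.97) and *Coq7*, an enzyme gene of ubiquinone synthesis (-0.96). These genes are at the ends of a ranking of 13170 over 8 points and come from the same libraries as *Arntl*.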

How the data were processed

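RNA-seq of 6 iMEF and 8 liver libraries was analysed. According to the study's methods, RNA was isolated with RNeasy kits and Novogene prepared, sequenced and aligned the libraries. The authors deposited raw counts of reads per gene, made per the submitters' processing notes with STAR and featureCounts on mm10, without versions. Neither the strand setting nor the annotation release is given in those sources. Tables normalized by the authors were not used. Members were joined between tissues by Ensembl ID, and positions and exon lengths come from GENCODE M21 (GRCm38).

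The main test was made per tissue in R 4.3.3 with edgeR 4.0.16 (filterByExpr, TMM, quasi-likelihood test, prior count of 2 for log2 fold changes), with Benjamini-Hochberg adjustment over 13561 genes in iMEFs and 14270 in livers and a threshold of 0.05. Changes in the tissues were compared in 1 fit over 14 libraries. Libraries held 15364450 to 20177401 reads, so low genes such as *Dbp* carry few reads. Correlations over livers used exact permutation tests over all pairings, computed with numpy 2.4.6 and checked against scipy 1.17.1 on a small example. The script was tested on simulated data. Alternatives were DESeq2 1.42.0, limma-voom (limma 3.58.1), RLE factors, no filter on low counts, a prior count of 0.5 in place of 2, the replicate number as a block, and leaving out each library in turn. Replicates of a group differed by more than the sampling noise of reads, so none was a second count of the same library. Whether any shared a culture, an animal or RNA cannot be told from this.

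All members are named. Of the other clock regulators and output genes, those past the threshold and the 4 with the smallest p in each tissue may be named, and up to 3 of the temperature, fasting and feeding lists. The 5 genes most and the 5 least like *Arntl* are also named, and results for some genes that these rules take are not reported here. *Tef* and *Nr1d2* were called in iMEFs. The members and lists were chosen with earlier results of these data known.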

Additional observations from a re-analysis of the deposited data

Results flagged for a closer look

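*Dbp* in senescent liver 4 was at 25.9 CPM, far from the other senescent livers at 0.752 to 1.92 CPM. On the CPM scale the gap took 0.954 of the range of the group, above Dixon's 95% critical value for 4 samples, and on the log2 scale it took 0.75, which is below it. With 20 groups of 4 livers examined, about 1 such value is given by chance. Control liver 4 was also the highest of its group, at 17.2 CPM.

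The change of *Clock* differed between the tissues. The log2 fold change in livers minus that in iMEFs was -0.76 (edgeR adjusted p = 0.0185), with all 3 senescent cultures above all 3 control cultures of iMEFs and overlapping groups of livers.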

How the results depend on the processing

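No direction of a called result turned under any alternative run. Of the counts, correlation calls and per-liver differences of *Arntl* and *Dbp*, 129 values stayed the same and 12 moved. Counts and calls were taken as the same within 1.5 times. Per-liver differences were taken as the same when they shifted by less than the SD of their group, which was wide. In livers DESeq2 called 139 of all genes (103 higher, 36 lower) and the fit with no filter on low counts called 130 (97 higher, 33 lower), against 49 in edgeR, and neither called a clock member. Without 1 library at a time, other clock regulators called in iMEFs numbered 5 to 9, output genes called in livers 0 to 1, members that differed between tissues 0 to 1, and relations of *Arntl* that passed 0 to 6. Whether samples with the same replicate number share a day or batch is not known and was not tested. Over all tested genes, deviations of same-numbered iMEF cultures correlated at -0.01, -0.05 and -0.17. Those of same-numbered livers correlated at 0.00, -0.08, -0.03 and 0.24. With the replicate number as a block, 4 members were called in iMEFs and 0 in livers, and 2 differed between tissues, *Clock* and *Nr1d1* (-1.34, edgeR adjusted p = 4.08e-04). Of the livers, only number 4 correlated best with its own number among the 4. Of the values of single genes and relations, 470 kept their side of the threshold, 14 lost it and 6 gained it, and the cause was not tested. Depth limits *Npas2* in iMEFs (15 reads in senescent and 30 in control libraries) and *Dbp* in livers.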
